A study of Mus musculus with 21 samples.

Results

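The Notch receptors, ligands and target genes examined here were 10 genes: the receptors Notch1, Notch2 and Notch3, the ligands Dll1, Dll3, Jag1 and Jag2, and the targets Hes1, Hes5 and Hey1. They were looked up by symbol among 52550 counted genes of mouse inner ear cells, and each matched a single gene. Another 43 genes of the pathway were followed beside them. The study profiled spiral ganglion neurons (SGNs), the neurons that carry sound information from the cochlea to the brain, with bulk RNA-Seq at 5 ages, with hair cells (HCs) and glial cells as reference populations. Each of the 7 groups had 3 libraries, 21 in all, from mice of the C57BL/6 strain. The SGNs, taken at ages E15.5, P1, P8, P14 and also P30, were tdTomato+ cells picked by hand from Shh Cre/+ mice carrying the Cre-dependent tdTomato reporter Rosa26-CAG-loxp-stop-loxp-tdTomato (Ai9)/+. The HCs at P12 came from cochlear and vestibular epithelia of Atoh1-CreER+; Ai9/+ mice given tamoxifen at P0 and P1, so they mix HCs of both organs. The glial cells at P8 came from vGlut3-iCreER/+; Ai9/+ mice given tamoxifen at P2 and P3. That line also labels inner HCs, and the ganglion area was dissected out before picking. All groups thus carried the same reporter allele, but each cell type came from its own Cre driver. The cell type cannot be told apart from the mouse line and, for HCs, from age. Only the HC and glial mice were given tamoxifen. HC libraries also held 1200 cells each, against 69 to 195 in SGN and 86 to 125 in glial libraries. The study's methods describe sorting for HCs, so isolation and cell number cannot be told apart from cell type either.

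Notch receptors are single-pass membrane proteins that are bound by Delta-like and Jagged ligands on a neighboring cell. Binding lets the ADAM proteases and then the gamma-secretase complex cut the receptor, and the freed intracellular domain joins the DNA-binding protein RBPJ and a Mastermind coactivator to switch on the Hes and Hey repressor genes. In the developing inner ear the pathway is best known for lateral inhibition, in which nascent HCs present ligands to the cells around them and those cells remain supporting cells, and in peripheral nerves it acts in the development of Schwann cells.

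Library sizes were 12887010 to 37287489 counts on genes in SGNs, 12205135 to 17925719 in HCs and 10368240 to 19759856 in glial cells. Levels are given as RPKM, the count per kilobase of gene and per 1000000 counts, with library sizes scaled by TMM so that they match the tests. Defining markers followed the labels: the summed level of 4 SGN markers was 111 to 393 RPKM in SGN libraries and 1.60 to 53.4 elsewhere, that of 4 HC markers was 378 to 396 in HC libraries and 11.6 to 49.6 elsewhere, and that of 3 glial markers was 453 to 566 in glial libraries and 0.439 to 33.8 elsewhere. Markers of other cell types were detected as well. The sum of 5 connective tissue markers was 207 to 368 RPKM in glial libraries, 27.5 to 29.7 in HC libraries and 0.349 to 60.9 in SGN libraries. The sum of 6 supporting cell markers was 232 to 235 RPKM in HC libraries, 14.3 to 81.0 in SGN libraries and 12.3 to 88.4 in glial libraries. None of the 6 was at 0 throughout the HC libraries. Most of the HC sum was Otog, at 151 to 160.0 RPKM, and most of the SGN sum at P1 was Prox1, at 66.3, 79.0 and 51.4 RPKM. In bulk libraries a lower number of expressing cells and less RNA per expressing cell cannot be told apart.

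The receptor genes lie at chr2:26457903-26516663 (Notch1), chr3:98013527-98150361 (Notch2) and chr17:32120820-32166852 (Notch3) of GRCm38 in GENCODE M21. The ligand genes lie at chr17:15367354-15376872 (Dll1), chr7:28293553-28302238 (Dll3), chr2:137081456-137116644 (Jag1) and chr12:112907819-112929776 (Jag2). The target genes lie at chr16:30064384-30067796 (Hes1), chr4:154960923-154962371 (Hes5) and chr3:8663359-8667256 (Hey1). Exons of Notch1, Notch2, Notch3, Dll1 and Hes5 overlap exons of another annotated gene. The strand setting of the counting is not given in the sources used here, so reads of such pairs cannot be told apart.

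The levels of several, but not all, of the 10 genes differed between cell types. Glial cells had the highest mean Notch1, Notch2 and Hey1, HCs the highest mean Dll1 and Jag2, and Jag1 was high in both and low in SGNs. In SGNs the family was represented mainly by Jag2 and Hey1. Jag2 supplied 78.9% of the summed RPKM of the 4 ligands over the 15 SGN libraries, with a range of 50.6% to 95.8%, and Hey1 supplied 86.4% of the 3 targets, with a range of 65.5% to 98.7%. In HCs Jag2 supplied 49.2% ± 5.14 (SD, n = 3) of the ligand sum and Dll1 27.4% ± 1.98. In glial cells Jag1 supplied 69.0% ± 27.8 of it. Hey1 supplied most of the target sum in HCs (92.9%) and in glial cells (91.8%) too. The receptor sum was 33.5 ± 9.26 RPKM in glial cells, 4.36 ± 0.447 in HCs and between 0.629 ± 0.663 and 4.15 ± 2.36 in the 5 SGN ages.

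**Figure D1:**
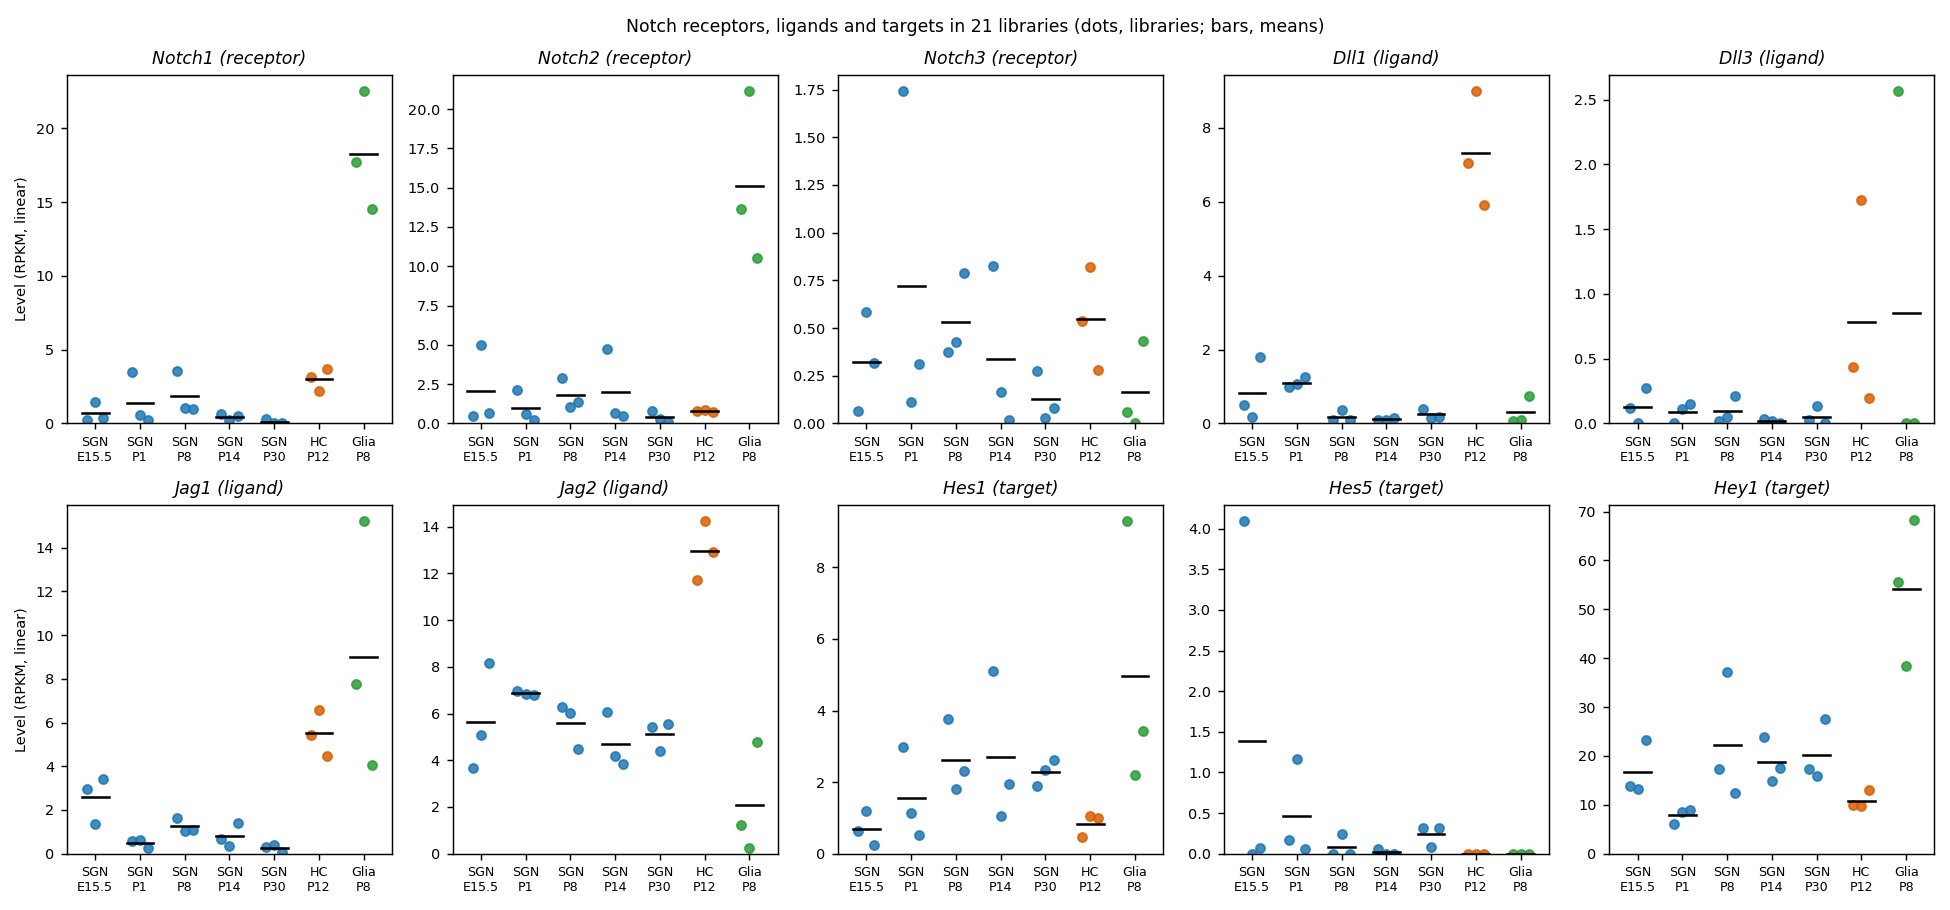
Level of each of the 10 genes in RPKM (y axis, linear, starting at 0) in the 21 libraries, by group on the x axis. Dots are libraries, blue for SGNs, orange for HCs and green for glial cells, and bars are means of 3. The 3 glial libraries lie above all SGN and HC libraries for Notch1, Notch2 and Hey1, and the 3 HC libraries lie above all others for Dll1 and Jag2.

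Comparisons between cell types used a test, a filter and limits as the study's methods word them, limma-voom at a Benjamini-Hochberg adjusted p under 0.01 and a change over 4-fold. SGNs were represented by the mean of their 5 ages on the log2 scale. Of the 10 genes, 8 had enough counts to be tested. Dll3 and Hes5 did not, because no group had over 1 CPM (count per 1000000) in all 3 of its libraries. Against HCs, 3 of the 8 passed, all lower in SGNs, where 26.8% of the 17531 genes tested were called. Against glial cells 4 passed, 3 lower and 1 higher in SGNs, where 24.7% of genes were called. Between P8 SGNs and P8 glial cells, which share an age, 4 passed, with 20.9% of genes called. Between HCs and glial cells 5 passed, 2 higher and 3 lower in HCs, with 24.4% of genes called.

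Notch1 and Notch2 are the receptors most widely used in mammalian tissues. Notch1 was at 17.8, 22.5 and 14.6 RPKM in the 3 glial libraries, at 3.17, 2.22 and 3.69 in the HC libraries and at 0.0193 to 3.56 in the SGN libraries, with a median of 0.477. All 15 SGN libraries lay below every glial library, and 13 of 15 lay below every HC library. Mean Notch1 of SGNs ran from 0.116 RPKM at P30 to 1.84 at P8, against 3.02 in HCs. Single SGN ages were not tested against HCs. Notch1 was 39.7-fold lower in the SGN mean than in glial cells (log2 fold change -5.31, SE 0.45, adjusted p = 4.72e-09) and 6.50-fold lower than in HCs (-2.70, SE 0.54, adjusted p = 0.000244). At P8 alone it was 11.5-fold lower in SGNs than in glial cells (-3.52, SE 0.52, adjusted p = 1.82e-05). HCs stood between the other cell types, 6.10-fold below glial cells (-2.61, SE 0.47, adjusted p = 0.000141).

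Notch2 was at 13.6, 21.1 and 10.5 RPKM in glial cells, at 0.809, 0.822 and 0.745 in HCs and at 0.0700 to 4.97 in SGNs, with a median of 0.691. The glial libraries were again separate from all others, but the HC values fell within the range of the SGN values. Notch2 was 16.4-fold lower in the SGN mean than in glial cells (log2 fold change -4.04, SE 0.46, adjusted p = 3.52e-07), 8.77-fold lower in SGNs at P8 (-3.13, SE 0.60, adjusted p = 0.000281) and 18.3-fold lower in HCs (-4.19, SE 0.80, adjusted p = 0.000268). SGNs and HCs could not be separated, with a log2 difference of 0.15 and a 95% interval from -1.53 to 1.84. Per length, Notch1 was at a mean of 3.02 ± 0.745 RPKM (SD, n = 3) in HCs and Notch2 at 0.792 ± 0.0417, while in glial cells their means were 18.3 ± 4.02 and 15.1 ± 5.46.

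Notch3, best known from vascular smooth muscle, was low everywhere. It was at 0.0154 to 1.74 RPKM in SGNs, at 0.539, 0.819 and 0.281 in HCs and at 0.0580, 0 and 0.434 in glial cells. No comparison between cell types passed for it, and the glial libraries held 9, 0 and 36 counts.

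The higher glial Notch1, Notch2 and Jag1 moved with the connective tissue markers as well as with the glial ones, since both sums were highest in the glial libraries, and the part of either in the result was not tested. The connective tissue sum was 207, 368 and 276 RPKM in glial replicates 1, 2 and 3. By the edgeR test, the calls of Notch1 and Notch2 between P8 SGNs and P8 glial cells missed the limit (adjusted p = 0.0133 and 0.0252), as did that of Notch1 between HCs and glial cells (0.0366), which DESeq2 did not call either (0.0141).

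Among the ligands, Dll1 is presented by nascent HCs. It was at 7.06, 8.999 and 5.92 RPKM in HCs, at 0.0738, 0.0830 and 0.736 in glial cells and at 0.0865 to 1.79 in SGNs, with a median of 0.179. Every HC library was above every other library. Dll1 was 23.8-fold lower in the SGN mean than in HCs (log2 fold change -4.57, SE 0.39, adjusted p = 2.98e-09) and 41.9-fold higher in HCs than in glial cells (5.39, SE 0.81, adjusted p = 2.08e-05). Between SGNs and glial cells the log2 difference was 0.82, with a 95% interval from -0.89 to 2.53.

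Jag2, another ligand of HCs, was at 11.7, 14.2 and 12.9 RPKM in HCs, at 3.65 to 8.18 in SGNs and at 1.22, 0.264 and 4.79 in glial cells. At P1 the 3 libraries were at 6.95, 6.85 and 6.78. All 15 SGN libraries lay below every HC library and 10 of 15 lay above every glial library. The difference from HCs was 2.36-fold (log2 fold change -1.24, SE 0.23, adjusted p = 0.000104), under the 4-fold limit and so not called. Jag2 was 4.81-fold higher in the SGN mean than in glial cells (2.27, SE 0.54, adjusted p = 0.00168), 4.88-fold higher at P8 (2.29, SE 0.58, adjusted p = 0.00333) and 11.3-fold higher in HCs than in glial cells (3.50, SE 0.57, adjusted p = 4.83e-05). The call for the SGN mean was lost in 5 of 26 alternatives and that at P8 in 6 of 14, both under edgeR (log2 fold changes 1.41 and 1.42, adjusted p = 0.0239 and 0.0607), DESeq2 (1.28 and 1.28, 0.0114 and 0.063) and sample quality weights (0.0279 and 0.0335), and when glial replicate 1 or 2 was left out. Without glial replicate 1 the adjusted p was 0.0111 for the SGN mean and 0.0145 at P8, and without glial replicate 2 it was 0.0133 and 0.0209, with log2 fold changes of 1.41 and 1.43. They were 3.10 and 3.12 without glial replicate 3. The 4.79 RPKM belonged to replicate 3. In glial replicates 1, 2 and 3, SGN markers summed to 53.4, 5.91 and 6.46 RPKM and HC markers to 43.8, 29.6 and 37.1. Supporting cell markers summed to 12.3, 88.4 and 26.7 RPKM. The part of other cells in the glial Jag2 values was not tested.

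Jag1, a ligand of supporting cells and of prosensory progenitors, was at 5.45, 6.60 and 4.48 RPKM in HCs, at 7.77, 15.2 and 4.06 in glial cells and at 0.0648 to 3.43 in SGNs, with a median of 0.673. All 15 SGN libraries were below every HC and every glial library. Mean Jag1 of SGNs was 2.58 RPKM at E15.5 and 0.253 at P30, against 5.51 in HCs. Single SGN ages were not tested against HCs. Jag1 was 7.48-fold lower in the SGN mean than in HCs (log2 fold change -2.90, SE 0.38, adjusted p = 1.41e-06), 11.0-fold lower than in glial cells (-3.45, SE 0.38, adjusted p = 2.94e-07) and 6.43-fold lower at P8 (-2.69, SE 0.52, adjusted p = 0.000323). HCs and glial cells overlapped, with a log2 difference of -0.55 and a 95% interval from -1.38 to 0.29. That order depends on the scale, since mean Jag1 was 19.8 TPM in HCs and 10.2 TPM in glial cells. The higher Jag1 and Notch1 of HCs than of SGNs moved with the supporting cell sum, most of which was Otog. Gjb2, Gjb6, Otog and Tecta were higher in every HC library than in every SGN library. Mean Prox1 was lower in HCs (28.2 RPKM) than in SGNs at P1, P8 and P14 (65.6, 50.8 and 43.4). Mean Fgfr3 was 0.982 RPKM in HCs, below SGNs at E15.5 and P14 (1.26 and 1.57). The part of supporting cells in the result was not tested.

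Dll3, a divergent ligand that acts within the cell, was close to 0 in SGNs, with 0 to 16 counts in the 15 libraries. HCs held 21, 114 and 14 counts, and 13 of 15 SGN libraries were below the lowest of them in RPKM. In glial cells replicate 1 held 141 counts and the other libraries 0, which allows up to 3 counts in each if a count stood for 1 fragment.

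**Figure D2:**
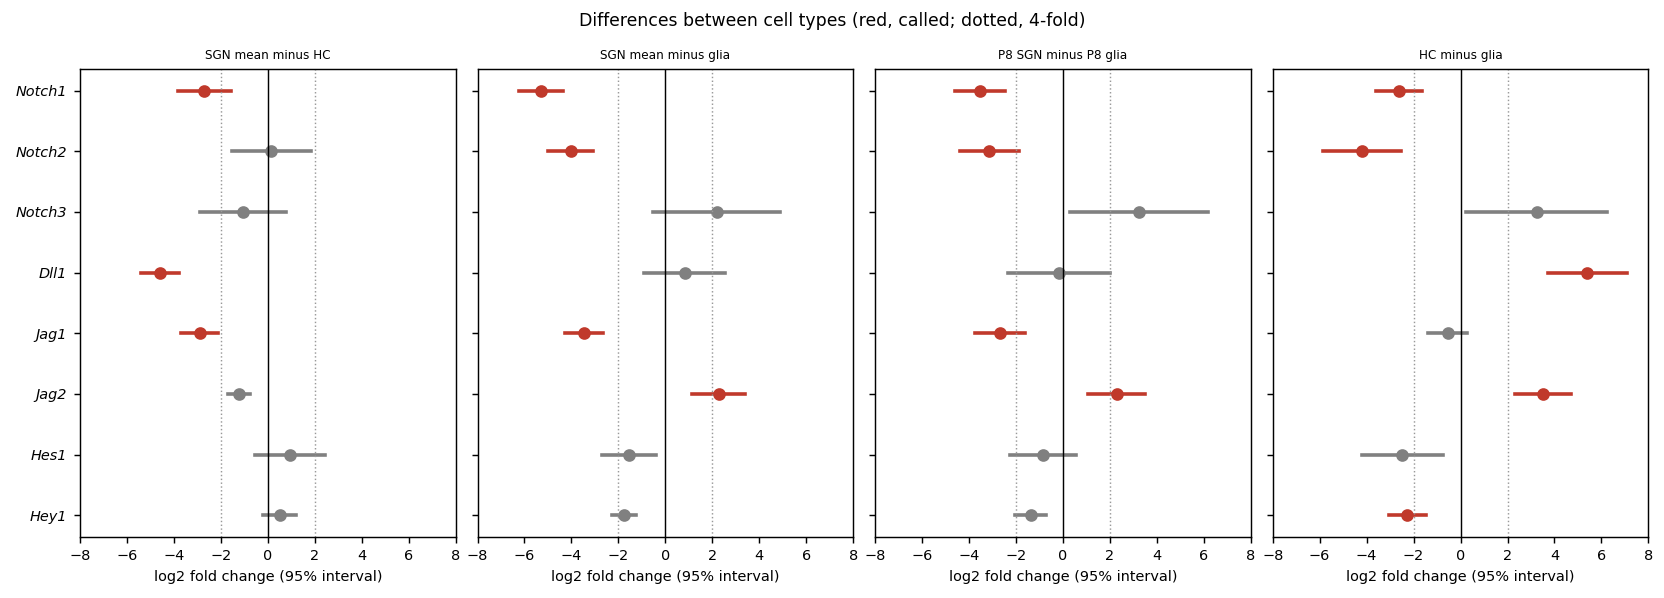
Difference between cell types for the 8 genes tested, as the log2 fold change with its 95% interval from limma-voom (x axis), in 4 panels named by the subtraction. Red marks the calls and dotted lines the 4-fold limit. Notch1 lies left of -2 in all 4 panels, and Dll1 lies at -4.57 and 5.39 in the panels with HCs.

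Of the target genes, Hes5 is often read as a sign of active Notch signaling, and its promoter is shown because it held the motif of RBPJ. RefSeq gives a promoter window, 250 bases before to 50 after the gene start, for 8 of the 10 genes, not for Hes1 and Hey1. The windows were searched on both strands for TGGGAA, the core of the RBPJ binding motif, which reads TTCCCA on the other strand. It occurs in 25.6% of the 32851 mouse promoters of the same length. Among the 8 genes only Hes5 held it, with 1 match on each strand that start 226 and 82 bases before the gene start. The upstream 250 bases of that window, on the plus strand of GRCm38.p6 at chr4:154960673-154960922, are shown with the matches in capitals.
Hes5: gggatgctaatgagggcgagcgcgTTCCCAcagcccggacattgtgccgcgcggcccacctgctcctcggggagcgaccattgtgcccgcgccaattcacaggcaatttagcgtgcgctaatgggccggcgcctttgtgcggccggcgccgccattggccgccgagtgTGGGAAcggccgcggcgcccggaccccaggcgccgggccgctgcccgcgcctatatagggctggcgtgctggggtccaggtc
A match describes the letters only, and its absence from the other windows says only that these letters are not there.

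Hes5 was scarcely detected. All 3 HC and all 3 glial libraries held 0 counts. If each count stood for 1 fragment, this allows up to 3 counts in each, or 0.152 to 0.289 CPM by counting error alone. The bound is higher if fragments were counted more than 1 time. In SGNs it was at 4.09, 0 and 0.0714 RPKM at E15.5, at 0.169, 1.17 and 0.0625 at P1, at 0, 0.244 and 0 at P8, at 0.0632, 0 and 0 at P14 and at 0.318, 0.0807 and 0.317 at P30. The value of E15.5 replicate 1 was 83 counts, and in the same library the 4 blood markers summed to 116 RPKM against 0 in replicates 2 and 3. The part of other cells in this value was not tested. Hes5 was not tested between groups.

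Hey1 was the most abundant of the 10 genes per length in glial cells and at every SGN age, and in HCs it came after Jag2. It was at 55.5, 38.5 and 68.3 RPKM in glial cells, at 9.87, 9.78 and 13.0 in HCs and at 5.99 to 37.1 in SGNs, with a median of 15.9. In RPKM, all 15 SGN libraries lay below every glial library, and 11 of 15 lay above every HC library. Both counts depend on the scale. In TPM, Hey1 was at 33.6, 35.5 and 48.5 in HCs and at 66.0, 42.8 and 74.6 in glial cells. The P30 SGN libraries, at 20.3, 26.0 and 24.3 TPM, then lay below every HC library. P14 replicate 1 (51.5 TPM) and P8 replicate 2 (82.6 TPM) lay above every HC library, and the latter also above every glial library. Hey1 was 3.39-fold lower in the SGN mean than in glial cells (log2 fold change -1.76, SE 0.25, adjusted p = 6.48e-06) and 2.59-fold lower at P8 (-1.37, SE 0.31, adjusted p = 0.00147), both under the 4-fold limit. It was 4.84-fold lower in HCs than in glial cells (-2.28, SE 0.38, adjusted p = 6.68e-05), which passed. SGNs and HCs could not be separated (0.52, 95% interval from -0.18 to 1.21), and this difference changed sign when libraries were scaled by size alone (-0.04).

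Hes1, which Notch shares with other inputs, was at 9.30, 2.19 and 3.43 RPKM in glial cells, at 0.466, 1.06 and 0.990 in HCs and at 0.239 to 5.10 in SGNs, with a median of 1.90. Glial values were highest, but SGN and glial ranges overlapped. No comparison passed for Hes1. The nearest were HCs against glial cells (log2 fold change -2.48, SE 0.83, adjusted p = 0.0192), called by DESeq2 (-2.38, 0.00526), and the SGN mean against glial cells (-1.53, SE 0.55, adjusted p = 0.0262).

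Between SGN ages, the main fit called a fall of Jag1 after E15.5 and a fall of Dll1 and a rise of Hey1 between P1 and P8. No later step was called. Each of these calls between neighboring ages was lost in several alternatives. Transitions were tested with the same method on the 15 SGN libraries and 15113 genes, and the limits were an adjusted p under 0.05 and 2-fold. For neighboring ages the study's methods name a higher CPM minimum than the 1 CPM used here. The test called 1 of the 8 genes, Jag1, from E15.5 to P1, and 8.26% of all genes. From P1 to P8 it called 2, Dll1 and Hey1, and 7.44% of all genes. From P8 to P14 and from P14 to P30 it called 0, with 0.536% and 0.0596% of all genes called. Neither edgeR nor DESeq2 called any of the 8 in these later steps, and 0 of them had an unadjusted p under 0.05. Across the whole span from E15.5 to P30 it called 1, Jag1, although 34.6% of all genes were called.

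Jag1 was at 2.94, 1.36 and 3.43 RPKM at E15.5, at 0.577, 0.641 and 0.271 at P1, at 1.64, 1.02 and 1.09 at P8, at 0.673, 0.367 and 1.39 at P14 and at 0.298, 0.397 and 0.0648 at P30. The E15.5 values did not overlap those of P1 or P30. Jag1 fell 4.91-fold from E15.5 to P1 (log2 fold change -2.30, SE 0.61, adjusted p = 0.0238) and 11.5-fold from E15.5 to P30 (-3.53, SE 0.79, adjusted p = 0.00213). Between P1 and P8 the values pointed up (1.37, 95% interval from 0.04 to 2.69, adjusted p = 0.181) and did not pass. The fall from E15.5 to P30 was called under all 13 alternatives, with log2 fold changes from -4.02 to -2.83. The last of these came without P30 replicate 3. The fall to P1 missed the limit in 6 of 14, among them without E15.5 replicate 3 (adjusted p = 0.0687) and without P1 replicates 1, 2 or 3 (0.0619, 0.0631 and 0.0736).

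Dll1 was at 0.973, 1.07 and 1.24 RPKM at P1, in 143, 114 and 123 counts, and at 0.102, 0.363 and 0.0865 RPKM at P8, in 14, 46 and 9 counts. The ages did not overlap. Dll1 fell 6.99-fold in that step (log2 fold change -2.81, SE 0.83, adjusted p = 0.0378). At E15.5 it was at 0.509, 0.162 and 1.79 RPKM, which overlapped both. The call was lost in 9 of 14 alternatives. Among them were leaving out any 1 of the 6 libraries compared, with adjusted p of 0.0637 to 0.133, and edgeR (0.0989).

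Hey1 was at 13.9, 13.3 and 23.2 RPKM at E15.5, at 5.99, 8.53 and 8.94 at P1, at 17.4, 37.1 and 12.5 at P8, at 23.9, 14.9 and 17.6 at P14 and at 17.2, 15.9 and 27.6 at P30. The 3 P1 values were below those of every other age. Hey1 rose 2.71-fold from P1 to P8 (log2 fold change 1.44, SE 0.39, adjusted p = 0.0255). The step from E15.5 to P1, 2.18-fold lower at P1, did not pass (-1.13, SE 0.42, adjusted p = 0.0933). The summed glial markers were at 1.63, 3.44 and 2.96 RPKM at P1 and at 29.9, 13.8 and 17.6 at P8, and their part in the rise was not tested. The rise was lost in 8 of 14 alternatives. Among them were fits without any 1 of the P1 libraries (adjusted p of 0.0532 to 0.138) and without P8 replicate 2 (0.98, 0.114). Scaling libraries by size alone (1.21, 0.0617), no filter on low counts and sample quality weights lost it too.

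Jag2 did not pass in any step, and its interval from E15.5 to P30 ran from -0.73 to 0.48 on the log2 scale, inside the 2-fold limit in both directions. Hes1 stood at 0.626, 1.20 and 0.239 RPKM at E15.5 and at 1.90, 2.35 and 2.62 at P30, with no overlap, but did not pass (log2 fold change 1.92, 95% interval from 0.00 to 3.84, adjusted p = 0.0998). The 3 receptors had wide intervals in every step. For Notch1 from E15.5 to P30 it ran from -6.84 to 0.72.

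**Figure D3:**
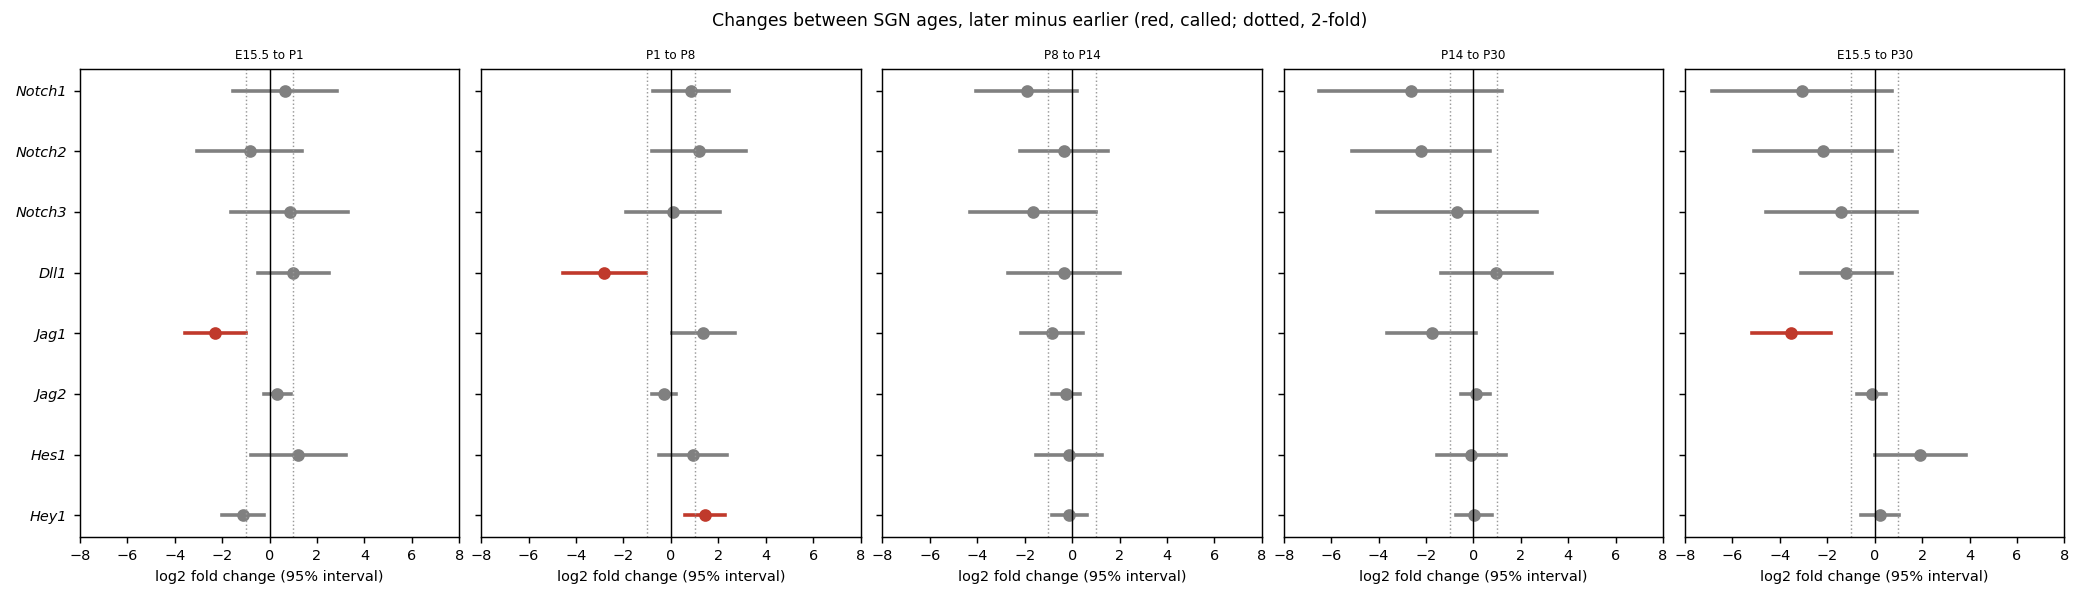
Change between SGN ages for the 8 genes tested, later minus earlier, as the log2 fold change with its 95% interval from limma-voom (x axis), in 5 panels. Red marks the calls and dotted lines the 2-fold limit. Jag1 is red from E15.5 to P1 (-2.30) and from E15.5 to P30 (-3.53), and Dll1 (-2.81) and Hey1 (1.44) from P1 to P8.

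The receptors and Hes1 varied widely between SGN libraries of 1 age. At P1 Notch1 was at 3.49, 0.536 and 0.210 RPKM and Notch3 at 1.74, 0.114 and 0.313. At P8 Notch1 was at 3.56, 1.01 and 0.957. At P14 Notch2 was at 4.76, 0.660 and 0.493 and Hes1 at 5.10, 1.05 and 1.94. In each case replicate 1 stood out. The same libraries held more RNA of other cell types: 5 endothelial markers summed to 45.8, 0.124 and 0.166 RPKM at P1 and to 8.94, 0.105 and 0.174 at P8. The connective tissue sum was 60.9, 4.01 and 3.52 at P1, 46.7, 11.7 and 8.70 at P8 and 32.5, 3.60 and 4.22 at P14. The glial sum of P14 was 33.8, 7.30 and 8.01. E15.5 replicate 2 had the highest SGN value of Notch2 (4.97 RPKM). It also had the highest pericyte and smooth muscle sum of its age, 13.0 against 1.59 and 0.628. Most of that sum was Cspg4 (9.13 RPKM) and Pdgfrb (3.60), while Rgs5, Myh11 and Acta2 were lower there than in replicate 1. The part of other cell types in the receptor levels was not tested. When replicates 1 of P1, P8 and P14 were left out together, an alternative chosen after seeing the data, the SGN mean lay further below glial cells for Notch1 (log2 fold change -5.78) and Notch2 (-4.56), and 0 of the 3 calls in neighboring ages remained.

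**Figure D4:**
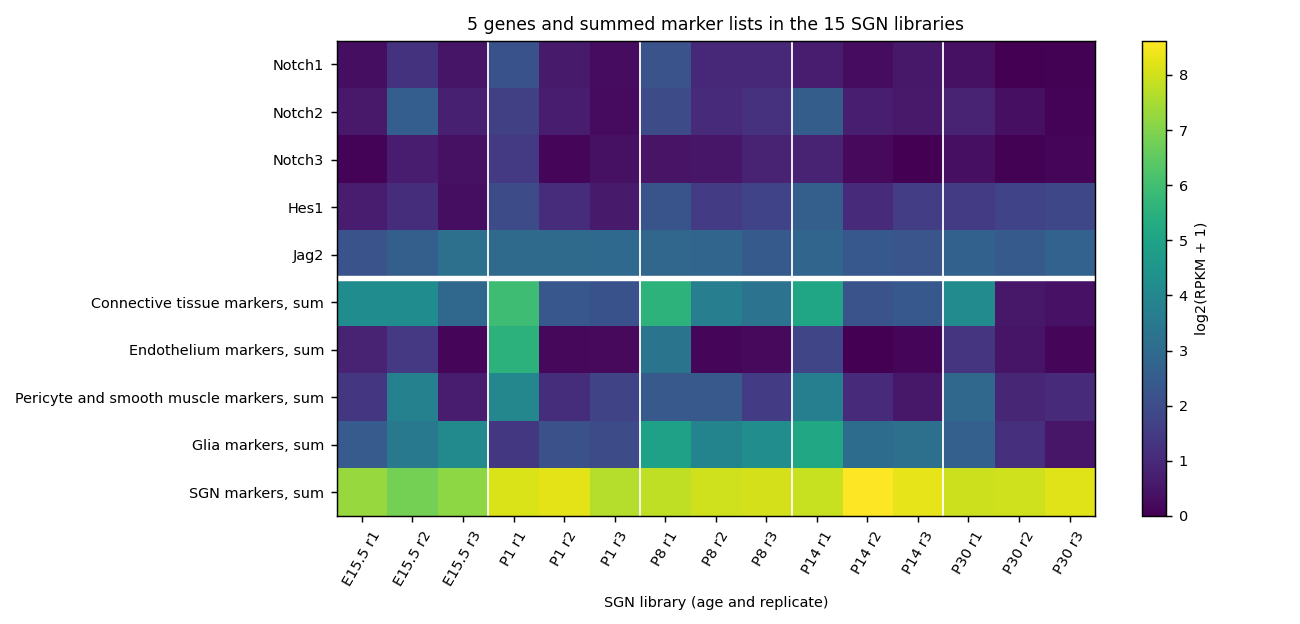
Levels of Notch1, Notch2, Notch3, Hes1 and Jag2 (upper rows) and summed levels of 5 marker lists (lower rows) in the 15 SGN libraries on the x axis, colored by log2(RPKM + 1). Replicate 1 of P1, P8 and P14 is bright for connective tissue markers (60.9, 46.7 and 32.5 RPKM) and for at least 1 receptor, while Jag2 is even across libraries (3.65 to 8.18 RPKM).

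Around these genes, 34 of the 43 other pathway genes could be tested between SGN ages and 38 between cell types. From E15.5 to P30 the test called 12 of 34, of which 10 fell and 2 rose, where 34.6% of all genes were called, and the median log2 fold change was -0.45 for the 34 against -0.01 for all genes. From P1 to P8 it called 4, where 7.44% of all genes were called, and in the other steps 0. In those 3 other steps edgeR and DESeq2 called 0 as well, and 7, 4 and 2 of the 34 had an unadjusted p under 0.05.

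The deepest falls were in Dtx1 and Dtx4, Deltex ubiquitin ligases that act on Notch, and in Dlk2, a Delta-like protein that lacks the receptor-binding module of the classical ligands. Dtx1 was at 12.7, 5.52 and 8.28 RPKM at E15.5, at 6.34, 6.43 and 5.64 at P1, at 0.808, 0.265 and 0.369 at P8 and at 0.114, 0.0209 and 0.266 at P30. The E15.5 and P1 values were all above those of the later ages. Dtx1 fell by 3.80 on the log2 scale from P1 to P8 (SE 0.60, adjusted p = 0.000602) and by 6.42 from E15.5 to P30 (SE 0.96, adjusted p = 6.76e-05), and these calls held under every alternative tried. Dtx4 fell by 4.30 from E15.5 to P30 (SE 0.80, adjusted p = 0.000505) and by 1.89 from P1 to P8 (SE 0.52, adjusted p = 0.0262), a call lost in 8 of 14 alternatives. Dlk2 fell by 5.83 from E15.5 to P30 (SE 1.35, adjusted p = 0.00262) and by 4.93 from P1 to P8 (SE 1.28, adjusted p = 0.0199). The call from P1 to P8 was lost in 4 of 14 alternatives, among them without P8 replicate 1 (-3.29, 0.0915) or 3 (-5.58, 0.0558). Exons of Dlk2 overlap those of Abcc10 on the other strand.

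Hey2, a relative of Hey1, rose between P1 and P8. It was at 0.494, 0.450 and 0.0928 RPKM at P1, at 6.29, 3.57 and 6.51 at P8, at 2.45, 2.28 and 0.390 at P14 and at 1.03, 0.120 and 0.141 at P30. The P8 values were above those of every other SGN library. The rise was 4.15 on the log2 scale (SE 0.84, adjusted p = 0.0042) and was called under all 14 alternatives. The glial marker sums were higher at P8 than at P1 in all libraries, and glial cells held Hey2 at 3.91, 7.36 and 2.26 RPKM. Their part in the rise was not tested. The 2 genes that rose from E15.5 to P30 were the gamma-secretase subunits Aph1b (1.08, SE 0.42, adjusted p = 0.0472) and Aph1c (1.98, SE 0.69, adjusted p = 0.0298). They are near-identical copies whose reads the counting could have split, and Aph1b was lost in 10 of 13 alternatives and Aph1c in 5. Rbpj itself, named here after its values were seen, went from 6.52, 7.26 and 7.57 RPKM at E15.5 to 2.68, 2.90 and 2.31 at P30, a fall of 1.48 on the log2 scale (SE 0.22, adjusted p = 5.62e-05) called under all 13 alternatives.

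Between cell types the other pathway genes were called in 6 of 38 against HCs (1 higher and 5 lower in SGNs), in 9 against glial cells (2 higher, 7 lower), in 9 between P8 SGNs and P8 glial cells (3 higher, 6 lower) and in 9 between HCs and glial cells (6 higher and 3 lower in HCs). In the same order, 26.8%, 24.7%, 20.9% and 24.4% of all genes were called. The median log2 difference of the 38 was -0.36, -0.47, -0.42 and -0.36 in these comparisons, against 0.02, 0.22, 0.22 and 0.14 for all genes.

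HCs stood apart by Dlk2 and by Heyl, the Hey1 relative. Dlk2 was at 33.7, 32.1 and 33.1 RPKM in HCs, at most 5.71 in SGNs and at 0.172, 0.414 and 0.276 in glial cells. Heyl was at 25.8, 19.4 and 25.0 RPKM in HCs, at most 2.02 in SGNs and at 0.751, 1.11 and 1.31 in glial cells. The HC libraries were above all others for both. Against the SGN mean the log2 differences were -6.15 for Dlk2 (SE 0.40, adjusted p = 4.98e-11) and -5.02 for Heyl (SE 0.29, adjusted p = 7.71e-12). Against glial cells they were 6.85 (SE 0.91, adjusted p = 5.45e-06) and 4.53 (SE 0.58, adjusted p = 3.29e-06). These 4 calls held under every alternative tried. The supporting cell sum was also highest in the HC libraries, and its part in the levels of Dlk2, Heyl and Lfng was not tested. Dll4, a ligand best known from blood vessels, was also called higher in HCs than in glial cells (5.03, SE 1.37, adjusted p = 0.00527), but the HC libraries held 26, 172 and 127 counts and the call was lost in 7 of 13 alternatives, among them without HC replicate 2 (0.023) or 3 (0.017) and without glial replicate 2 (0.0396) or 3 (0.0374). Dtx1 was higher in the SGN mean than in HCs (4.83, SE 1.11, adjusted p = 0.000987). The call was lost in 3 of 26 alternatives, among them without HC replicate 2 (3.32, 0.0283) or 3 (4.43, 0.0128). Over the 26, the lowest log2 difference was 2.44 and the highest adjusted p was 0.0448. Mean Dtx1 was 8.84 RPKM in SGNs at E15.5 and 6.13 at P1. From P8 on, the age means were 0.481, 0.371 and 0.134 RPKM. Each of these later ages overlapped the HC libraries (0.496, 0 and 0.0153 RPKM). HCs were not tested against single SGN ages.

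Lfng, a sugar transferase that tunes which ligands a Notch receptor answers, was at 5.19, 5.69 and 4.88 RPKM in HCs and at 0 to 1.44 in SGNs, a log2 difference of -4.69 (SE 0.78, adjusted p = 3.36e-05). In glial cells it was at 3.00, 1.01 and 67.4 RPKM, so the log2 difference of -4.67 from the SGN mean (SE 0.84, adjusted p = 0.000101) combined 1 very high library with 1 inside the SGN range and 1 above it. Glial cells had more Adam17, a protease that can cut Notch, and more Maml3, a Mastermind coactivator. Adam17 was at 26.4, 27.8 and 15.3 RPKM in glial cells and at 0.555 to 4.35 in SGNs, with log2 differences of -2.82 between P8 SGNs and P8 glial cells (SE 0.41, adjusted p = 1.52e-05) and -2.87 between HCs and glial cells (SE 0.44, adjusted p = 2.62e-05). Maml3 was at 13.996, 18.4 and 30.9 RPKM in glial cells and at 0.408 to 6.97 in SGNs, with log2 differences of -3.51 from the SGN mean (SE 0.27, adjusted p = 9.75e-10), -2.90 at P8 (SE 0.36, adjusted p = 2.63e-06) and -3.02 from HCs (SE 0.39, adjusted p = 4.03e-06). Exons of Adam17 overlap those of Iah1 on the other strand.

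In the other direction, Psen2, a catalytic gamma-secretase subunit, and Hes6, a Hes relative that opposes Hes1, were lower in glial cells. Psen2 was at 0.275, 0.344 and 0.0224 RPKM in glial cells and at 0.883 to 2.79 in SGNs, with log2 differences of 3.42 (SE 0.71, adjusted p = 0.000452) for the SGN mean and 3.33 (SE 0.77, adjusted p = 0.00163) at P8. Hes6 was at 0.115, 0.968 and 0 RPKM in glial cells and at 1.25 to 5.44 in SGNs, with log2 differences of 4.17 (SE 0.85, adjusted p = 0.000402) and 3.89 (SE 0.95, adjusted p = 0.00238). No SGN library was within the glial range for either. Without glial replicate 3, which held 1 count of Psen2 and 0 of Hes6, the adjusted p against the SGN mean was 0.0107 for Psen2 and 0.0121 for Hes6. For the SGN mean each of these calls was lost in 2 of 26 alternatives. At P8 the call was lost in 2 of 14 for Psen2 and in 5 of 14 for Hes6. Aph1b was higher in SGNs at P8 (2.07, SE 0.49, adjusted p = 0.00205), close to the 4-fold limit and lost in 8 of 14 alternatives. Rbpjl, an RBPJ paralog, was lower in SGNs than in glial cells (-5.39 for the SGN mean and -6.53 at P8), but its exons overlap those of Matn4 on the other strand and most SGN libraries held 5 counts or fewer, while E15.5 replicate 2 held 172. Dtx4 was lower in HCs than in glial cells (-3.30, SE 0.74, adjusted p = 0.00119).

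**Figure D5:**
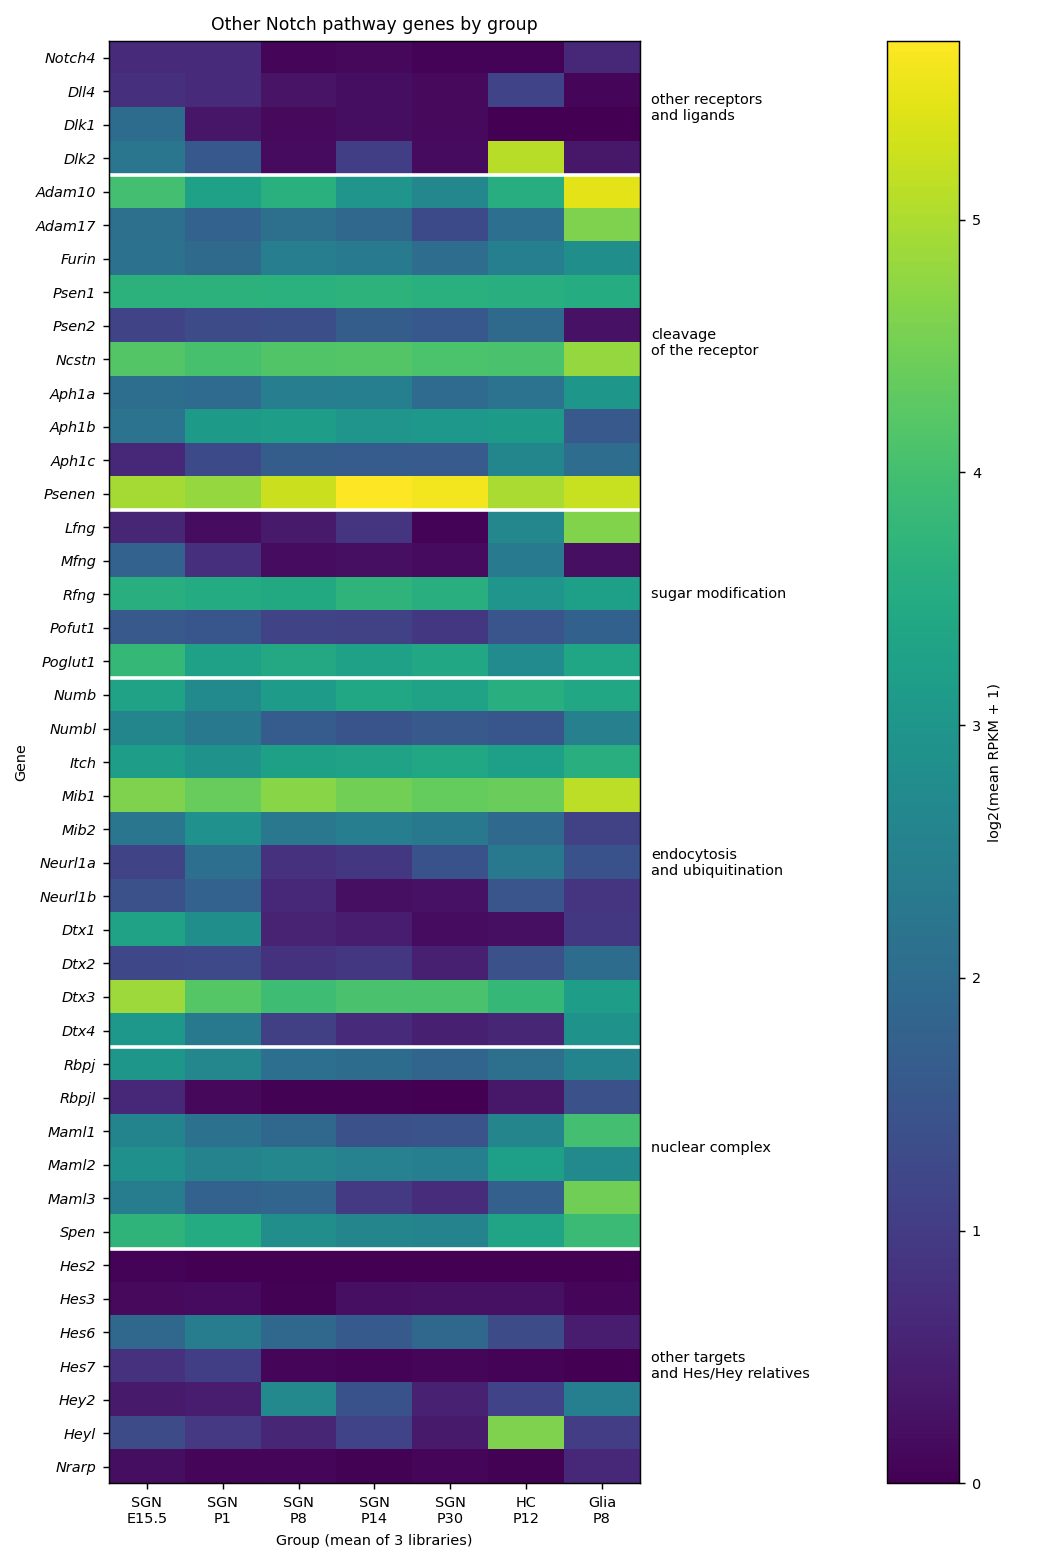
Mean level of the other 43 pathway genes (rows, grouped by step of the pathway) in the 7 groups (columns, means of 3 libraries), colored by log2(mean RPKM + 1). Dlk2 (33.0 RPKM) and Heyl (23.4 RPKM) are bright in HCs, Adam17 (23.2), Lfng (23.8) and Maml3 (21.1) in glial cells, and Dtx1 and Dtx4 darken from E15.5 (8.84 and 7.27) to P30 (0.134 and 0.409).

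For the 7 genes with a mean of at least 5 TPM in some group, the genes with the most similar pattern were found by Pearson's r of log2(TPM + 1) over the 21 libraries, among the 17531 genes tested. The libraries share groups and the TPM scaling, so the values describe likeness only. Notch1 was most like Sox13 (r = 0.960), Col18a1 (0.952) and Gab1 (0.951), and Notch2 most like Ahnak (0.962), Tns3 (0.960) and Enpp1 (0.941). Dll1 was most like Tmem173 (0.971), Lrrc9 (0.963) and BB218582 (0.961), Jag1 most like Ippk (0.946), Inka2 (0.942) and Nemp1 (0.942), and Jag2 most like Ocrl (0.953), Nt5dc3 (0.951) and Wnk2 (0.948). The targets had looser neighbors. Hes1 was most like Arsb (0.791), Cavin1 (0.756) and Erap1 (0.740), and Hey1 most like Raly (0.871), Man2b1 (0.871) and Cdc37l1 (0.823). None of these neighbors was another of the 10 genes.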

How the data were processed

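RNA of 69 to 195 SGNs, 86 to 125 glial cells or 1200 HCs per library was amplified with the Ovation RNA-Seq System V2 and sequenced in pairs. The authors mapped reads to mm10 with STAR 2.4.0i and deposited raw counts per gene (GENCODE vM15, featureCounts) with the gene lengths in bases. CASAVA was also named. Strand, pair and multimapping settings are not given in the sources used here. Between 64.3% and 75.0% of the counts from 1 to 20 in a library were even, so a count need not be 1 fragment. The labels describe hand picking for all cells, while the study's methods describe sorting for HCs.

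The 10 genes and the other lists were chosen with earlier results of these data known. From the deposited counts, limma 3.58.1 (voom, TMM sizes from edgeR 4.0.16, R 4.3.3) was fitted to the 15 SGN libraries for ages and to all 21 for cell types, with 1 mean per group and no block. Genes needed over 1 CPM in all libraries of at least 1 group. That filter was taken from the wording of the study's methods and kept another number of genes here than is stated there. For its classes of change between neighboring ages the study required over 10 CPM, which was not applied here. Dll1, at a mean of at most 4.82 CPM at any SGN age, would not have been tested under it. Neither would Jag1, which held 163 of 18737521 counts in E15.5 replicate 2. P-values were two-sided and adjusted over all genes tested by Benjamini-Hochberg. Nothing in the labels says that libraries came from separate animals, so they measure the spread between libraries, which may be technical. RPKM were computed from TMM-scaled sizes, because the ratio of TPM to this RPKM was 0.801 to 2.50 in SGNs, 3.41 to 3.74 in HCs and 1.09 to 1.19 in glial cells. Intervals and floors of 3 counts cover counting error or library spread only. Symbols were matched by Ensembl ID for 52403 genes, and positions are from GENCODE M21. Of the other pathway genes, the 3 largest rises and falls among the calls of each comparison were named. Alternatives were DESeq2 1.42.0, edgeR's quasi-likelihood test, other scalings, no filter, sample quality weights, a replicate block and leaving out libraries. Same-numbered libraries deviated together, with all 3 correlations above 0.1, only from P14 to P30 among the groups compared (0.397, 0.277 and 0.140). From P1 to P8 (0.411, 0.0906 and 0.175) and from P8 to P14 (0.399, 0.185 and 0.0699) all were positive. All were above 0.1 between P1 and P14 and between P8 and P30, pairs not compared here. Such a pairing was seen in the data and is not stated by the labels. Tables were made with Python 3.11.15, pandas 2.3.3 and numpy 2.4.6, and figures with matplotlib 3.10.9.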

Additional observations from a re-analysis of the deposited data

How the results depend on the processing

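Between cell types, the calls of Notch1, Dll1 and Jag1 against HCs and of Notch1, Notch2 and Jag1 against glial cells held under all 26 alternatives. No value reversed in direction while called. From E15.5 to P1 the number of the 10 genes called was 2 with DESeq2, 0 with sample quality weights, 0 to 1 when 1 library was left out and 0 without replicates 1 of P1, P8 and P14 together. From P1 to P8 it was 1 with library size only, 1 with edgeR, 0 with no filter on low counts, 1 with sample quality weights, 0 to 1 when 1 library was left out and 0 without the 3 libraries. From E15.5 to P30 it was 1 to 2 when 1 library was left out, with Dll1 added without E15.5 replicate 2 (log2 fold change -2.13, adjusted p = 0.0473). Between P8 SGNs and P8 glial cells it was 1 with edgeR and 3 with DESeq2 or sample quality weights, and between the SGN mean and glial cells it was 3 with each of these. Between HCs and glial cells it was 4 with edgeR and 5 with DESeq2, which lost Notch1 and added Hes1. The cause of these differences was not tested. When 1 library was left out, the number was 3 against HCs, 3 to 4 against glial cells, 3 to 4 at P8 and 5 to 6 between HCs and glial cells.

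With the replicate block, the number called was 1, 2, 0 and 0 in the 4 age steps, 1 from E15.5 to P30, 3 against HCs, 4 against glial cells, 4 at P8 and 6 between HCs and glial cells, where Hes1 was added (adjusted p = 0.00936). The replicate block changed no other call of the 10 genes, and from P14 to P30 it raised the number of all genes called from 9 to 23. Scaling by library size only moved the median log2 fold change of all genes to -0.49 from E15.5 to P30, to -0.54 for SGNs against HCs and to 0.63 for HCs against glial cells, and the genes called higher and lower from E15.5 to P30 went from 2778 and 2446 to 1698 and 3973. Under that scaling Notch2 (-0.41) and Hey1 (-0.04) against HCs and Hey1 from E15.5 to P30 (-0.25) changed sign, none of them called, and Hey1 between HCs and glial cells fell under the 4-fold limit (-1.78). Without glial replicate 2, Hes1 was called lower in SGNs (-2.00, adjusted p = 0.00662) and in HCs (-2.94, 0.00767) than in glial cells. Low counts limit Dll3 and Hes5.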
